A study of Mus musculus with 3 samples.

Results

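The genes described here are those of platelet-derived growth factor (PDGF) signalling, with 3 genes by which pericytes are usually recognised. They were chosen by symbol, as the 9 rows of a table of 24346 gene symbols named *Pdgfa*, *Pdgfb*, *Pdgfc*, *Pdgfd*, *Pdgfra*, *Pdgfrb*, *Cspg4*, *Rgs5* and *Higd1b*. The study compared the vasculature of the kidney with that of other organs, and its adult lung endothelial cells (ECs) are analysed here in 3 libraries called S38, S44 and S52. Where 3 values stand together they follow this order. The lungs came from wild type male C57BL/6J mice aged 6 to 8 weeks that had received a fluorescent VE-cadherin antibody into the circulation. Cells positive for CD31 and VE-cadherin and negative for CD45 and Podoplanin were purified by fluorescence-activated cell sorting and were not cultured. Poly-A RNA was read in 51 bp from both ends, and the library kit did not mark strand. Since all libraries belong to 1 condition, no difference between conditions was tested, and with 3 pairs of values an exact paired test could not reach a two-sided p below 0.25. The sources used here do not say whether the libraries came from separate mice, so the SDs below measure the spread between libraries, which may be technical.

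PDGFs are dimeric growth factors that act through the receptor tyrosine kinases PDGFRα and PDGFRβ. In growing vessels, ECs secrete PDGF-B, which is held near the vessel by heparan sulphate and attracts pericytes carrying PDGFRβ. Pericytes are the mural cells that wrap capillaries. In the lung, PDGF-A acts on PDGFRα-positive fibroblasts, in a pathway known for its part in forming alveoli. The levels below are in FPKM (fragments scaled to transcript length and library size), a unit that allows genes of different length to be compared.

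The libraries held an estimated 34600000 to 39400000 fragments and 11268 to 11950 genes at 1 FPKM or above. The defining markers of the labelled cell type were present, and the median of 10 endothelial genes was 378, 393 and 379 FPKM, with *Pecam1* (CD31) at 1125, 1216 and 1164 FPKM. None of these 10 differed over 2-fold between libraries, but *Erg*, an endothelial transcription factor gene, came close at 59.2, 43.1 and 84.8 FPKM. Its level in S52 was 1.97 times that in S44, while that of *Cldn5*, a junction gene, was 0.594 times. Of the 10, 2 were highest and 4 lowest in S52. Library S52 stood apart in its low platelet, alveolar type 2, airway and leukocyte genes, which lay at medians of 0.0588 to 0.323 times their own levels in S44. The medians were 43.96, 40.9 and 9.29 FPKM for 5 airway genes and 6.50, 4.69 and 0.865 FPKM for 8 leukocyte genes. For 5 alveolar type 1 genes the median level was 10.5, 7.61 and 3.09 FPKM, although the median of their single ratios of S52 to S44 was 1.68. Over all detected rows the median ratio of S52 to S44 was 0.951. Short noncoding genes made up 59.9%, 70.3% and 67.0% of the summed FPKM, so a rescaling to that sum moves all other genes.

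*Pdgfb* was the highest of the 9 genes in every library and *Pdgfd* the second highest, while the receptor genes and the pericyte genes lay between 0.670 and 10.7 FPKM. With a mean of 1 FPKM as the minimum for a detected gene, 8 of the 9 were detected, against 48.3% of all rows, and 7 of them reached 1 FPKM in each library. The exceptions were *Pdgfc*, which was not detected, and *Cspg4*, which passed on the strength of S52: without that library 7 members were detected. In order of mean level the genes ran *Pdgfb*, *Pdgfd*, *Pdgfa*, *Higd1b*, *Pdgfrb*, *Pdgfra*, *Rgs5*, *Cspg4* and *Pdgfc*. Of the 8 neighbouring pairs in this order, 5 had ranges over the libraries that did not overlap. The pairs *Higd1b* and *Pdgfrb*, *Pdgfrb* and *Pdgfra*, and *Pdgfra* and *Rgs5* overlapped in range. Within single libraries *Higd1b* was above *Pdgfrb* in 3 of 3, *Pdgfrb* above *Pdgfra* in 1 and *Pdgfra* above *Rgs5* in 2.

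**Figure D1:**
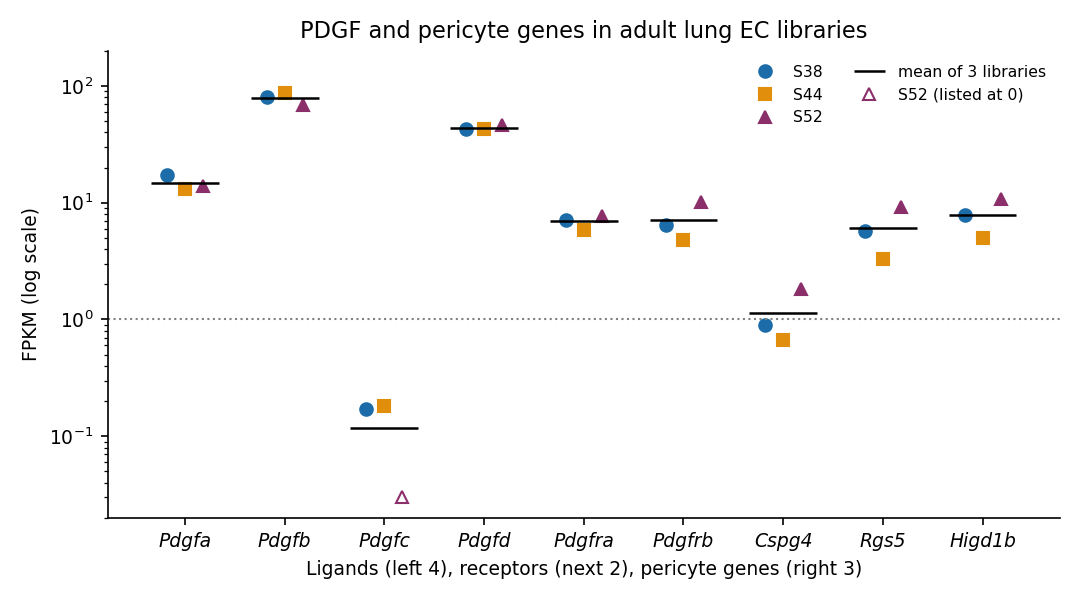
FPKM (log scale) of each gene in S38 (circles), S44 (squares) and S52 (triangles), with bars at the mean of 3 libraries and a dotted line at 1 FPKM; the open triangle marks *Pdgfc* in S52, which is listed at 0. *Pdgfb* and *Pdgfd* stand above the other genes in each library. As deposited, S52 is the highest library for both receptors and for the 3 pericyte genes (for *Pdgfra* it is S38 after rescaling to a common sum over all rows).

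The stretch of 250 bases before the RefSeq start site (build GRCm38.p6) could be matched for 6 of the 9 genes, and 3 are printed. *Pdgfd* and *Pdgfc* are close relatives and were the second highest and the lowest of the 4 ligands, and *Rgs5* is the pericyte gene with the largest fold between libraries. The sequences run 5′ to 3′ on the strand of the gene, at chr9:6168236-6168485, chr3:81036166-81036415 and chr1:169655251-169655500, all on the plus strand. Capitals mark matches on either strand to 4 motifs, which were the CArG box of serum response factor, TGGGAA (the core bound by RBPJ), TATAAA and CCGGAA (an ETS motif).
Pdgfd: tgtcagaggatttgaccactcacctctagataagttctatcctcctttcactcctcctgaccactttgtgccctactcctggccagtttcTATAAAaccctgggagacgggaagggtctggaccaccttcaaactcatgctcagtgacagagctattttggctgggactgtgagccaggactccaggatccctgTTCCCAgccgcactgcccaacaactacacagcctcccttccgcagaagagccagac
Pdgfc: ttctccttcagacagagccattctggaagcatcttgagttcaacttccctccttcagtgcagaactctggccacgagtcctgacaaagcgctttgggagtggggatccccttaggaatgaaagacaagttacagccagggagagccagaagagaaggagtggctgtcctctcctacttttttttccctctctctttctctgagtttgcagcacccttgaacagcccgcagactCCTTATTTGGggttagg
Rgs5: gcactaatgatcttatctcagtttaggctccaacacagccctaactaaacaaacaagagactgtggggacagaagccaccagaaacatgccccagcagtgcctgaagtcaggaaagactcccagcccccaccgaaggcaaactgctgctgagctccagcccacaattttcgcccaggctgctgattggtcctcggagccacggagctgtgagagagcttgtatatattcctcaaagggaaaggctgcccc

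The *Pdgfd* window held 1 TATAAA and 1 TGGGAA, the latter on the minus strand and so printed as TTCCCA. The *Pdgfc* window held 1 CArG box, and the *Rgs5* window held none of the 4 motifs. Among 32851 windows of the same length, 12.4% held TATAAA, 21.6% TGGGAA, 12% CCGGAA and 1.47% a CArG box. These matches describe the letters of the windows and show no binding.

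Among the ligands, *Pdgfb* was the main transcript. Positions given with each gene span the whole protein-coding gene in GENCODE M21 on GRCm38. *Pdgfb* (ENSMUSG00000000489, 15:79995874-80014977, minus strand) encodes PDGF-B, the ligand by which ECs recruit mural cells. Its level was 79.6, 86.9 and 69.1 FPKM, with a mean of 78.5 ± 8.91 FPKM (SD, n = 3 libraries). It was above 95.4% of all rows. As deposited, the highest library, S44, exceeded the lowest, S52, 1.26-fold. Against the median of 10 endothelial genes in the same library, *Pdgfb* amounted to 21.1%, 22.1% and 18.3%.

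*Pdgfd* (ENSMUSG00000032006, 9:6168584-6378850, plus strand) encodes PDGF-D, which needs proteolytic release of its CUB domain to bind PDGFRβ. It was at 42.9, 42.9 and 46.1 FPKM, a mean of 43.98 ± 1.87 FPKM (SD, n = 3). Its coefficient of variation of 4.26% was the smallest of the 9 genes. *Pdgfa* (ENSMUSG00000025856, 5:138976014-138997370, minus strand), whose product PDGF-A binds PDGFRα, was at 17.1, 13.1 and 13.9 FPKM, with a mean of 14.7 ± 2.11 FPKM (SD, n = 3). *Pdgfc* (ENSMUSG00000028019, 3:81036416-81214040, plus strand) encodes PDGF-C, the other ligand with a CUB domain. It was at 0.173 FPKM in S38 and 0.183 FPKM in S44 and was listed at 0 in S52. These values stand for an estimated 22 and 24 fragments. If fragments were independent, a count of 0 in S52 would allow up to 0.0261 FPKM (3 fragments). More rows were listed at 0 in S52 (9923) than in S38 (8324) or S44 (8119), so this limit may be too low. The 2 ligands that need proteolytic release were thus at very different levels in these cells.

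The makeup of the ligand transcripts was much the same in each library. Of the summed FPKM of the 4 ligands, *Pdgfb* made up 56.9%, 60.7% and 53.5%. The share of *Pdgfd* was 30.7%, 30.0% and 35.7%, and that of *Pdgfa* 12.2%, 9.17% and 10.8%. The sum itself was 140, 143 and 129 FPKM.

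Platelets store PDGF, and alveolar epithelial cells make PDGF-A, so the marker genes of both are given beside the ligands. The median of 10 platelet genes was 107, 101 and 3.79 FPKM, and all 10 were lowest in S52. *Ppbp*, which encodes a platelet chemokine, was at 1054, 778 and 16.0 FPKM. In S52, where the platelet genes were at a median of 0.0588 times their own level in S44, *Pdgfb* was at 0.796 and *Pdgfa* at 1.06 times its level in S44. The median of 5 alveolar type 2 genes was 182, 121 and 33.7 FPKM. *Pdgfa* was also highest in S38, at 1.23 times its level in S52, but it was lowest in S44. All 5 alveolar type 2 genes were lowest in S52. The part of alveolar cells in the level of *Pdgfa* was not tested.

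The receptor genes were lower than the 3 detected ligands. *Pdgfrb* (ENSMUSG00000024620, 18:61045150-61085061, plus strand) encodes PDGFRβ, the receptor of pericytes and smooth muscle cells. It was at 6.47, 4.80 and 10.1 FPKM, a mean of 7.11 ± 2.69 FPKM (SD, n = 3). *Pdgfra* (ENSMUSG00000029231, 5:75152292-75198215, plus strand), the receptor gene of fibroblasts, was at 7.13, 5.86 and 7.72 FPKM, a mean of 6.90 ± 0.950 FPKM (SD, n = 3). The means of the receptor genes were nearly equal, but *Pdgfrb* differed 2.098-fold between S52 and S44 and *Pdgfra* 1.32-fold. Their ratio, *Pdgfrb* to *Pdgfra*, was 0.908, 0.819 and 1.30, so *Pdgfrb* was the higher of the pair in S52 alone.

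Set against their main receptors, the transcripts of the 3 detected ligands were in excess in each library, while *Pdgfc* was below both receptor genes. The level of *Pdgfb* was 12.3, 18.1 and 6.87 times that of *Pdgfrb*, a mean ratio of 12.4 ± 5.62 (SD, n = 3). The ratio of *Pdgfd* to *Pdgfrb* was 6.63, 8.94 and 4.59. The ratio of *Pdgfa* to *Pdgfra* was 2.40, 2.24 and 1.80, a mean of 2.15 ± 0.309 (SD, n = 3). In these ratios *Pdgfrb* was the more variable partner, with a coefficient of variation of 37.8%, against 11.3% for *Pdgfb* and 4.26% for *Pdgfd*. These are ratios of transcript levels and say nothing of protein. They hold for a fraction sorted for ECs, and do not measure the balance of ligand and receptor in the whole lung.

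The pericyte genes were detected at low levels and differed between libraries more than the 3 detected ligands did. *Rgs5* (ENSMUSG00000026678, 1:169655501-169695813, plus strand), which encodes a regulator of G-protein signalling abundant in pericytes, was at 5.75, 3.31 and 9.11 FPKM. *Higd1b* (ENSMUSG00000020928, 11:102835849-102838040, plus strand), a HIG1 domain gene used as a marker of lung pericytes, was at 7.88, 4.94 and 10.7 FPKM. *Cspg4* (ENSMUSG00000032911, 9:56865033-56899870, plus strand), which encodes the proteoglycan NG2, was at 0.900, 0.670 and 1.81 FPKM. All of them were highest in S52 and lowest in S44. Their means were 6.06 ± 2.91, 7.83 ± 2.86 and 1.13 ± 0.600 FPKM (SD, n = 3 libraries each), in the order *Rgs5*, *Higd1b* and *Cspg4*.

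With *Pdgfrb*, these genes made up the 4 of 8 detected members whose highest library was over 2-fold above the lowest, against 20.1% of the 11770 detected rows. In each of the 4 it was S52 that was over 2-fold above S44, against 3.87% of detected rows. *Rgs5* was 2.76-fold higher in S52 than in S44, with a 95% counting interval of 2.49 to 3.06, and *Cspg4* 2.70-fold, with an interval of 2.29 to 3.17. For *Pdgfrb* the fold was 2.098 (1.94 to 2.27) and for *Higd1b* 2.16 (1.71 to 2.73), so the lower end of both intervals was under 2. The intervals rest on estimated fragments, which for *Higd1b* numbered 172, 108 and 197. They cover counting error only, since reads without molecular identifiers are not independent molecules. The count of 4 rests on S44 and S52: it was 1 without S44 (*Cspg4*) and 0 without S52. Between S38 and S44 alone, S38 was higher 1.35-fold for *Pdgfrb*, 1.34-fold for *Cspg4*, 1.74-fold for *Rgs5* and 1.59-fold for *Higd1b*.

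**Figure D2:**
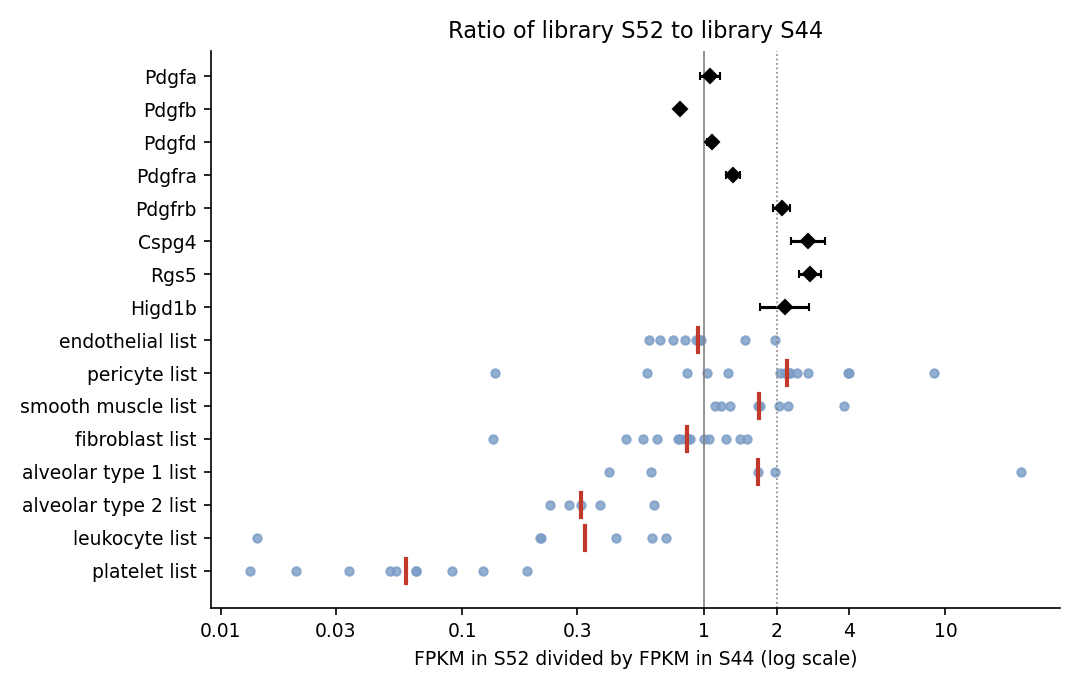
Level in S52 divided by the level in S44 (log scale) for the 8 detected members (diamonds, with bars for the 95% counting interval) and for the detected genes of 8 marker lists (blue dots, with a red bar at their median); lines mark ratios of 1 and 2. *Pdgfrb*, *Cspg4*, *Rgs5* and *Higd1b* lie from 2.098 to 2.76, near the pericyte list with its median of 2.21, while the platelet list has a median of 0.0588.

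The order of the libraries was shared more widely than the 2-fold difference. In 6 of the 8 detected members S52 was the highest library, S38 came next and S44 was the lowest, an order found in 17.8% of detected rows. These were *Pdgfd*, *Pdgfra*, *Pdgfrb*, *Cspg4*, *Rgs5* and *Higd1b*, and in 4 of them each step was at least 1.1-fold. The exceptions were *Pdgfa*, highest in S38, and *Pdgfb*, highest in S44. The count stayed at 6 on rescaling to a common sum without short noncoding genes, and on rescaling to a common endothelial median. When each library was rescaled to a sum of 1000000 over all rows, 4 members had the order (*Pdgfrb*, *Cspg4*, *Rgs5* and *Higd1b*). Of these, 3 were still detected, since the mean of *Cspg4* fell under 1 FPKM. The deposited sums were above 1000000 in each library, so every level falls while the threshold stays at 1 FPKM. *Pdgfb*, *Pdgfd* and *Pdgfra* were highest in S38 after this rescaling. How many of all detected rows had the order was not counted under any rescaling.

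Relative to *Pdgfrb*, the pericyte genes varied less than their levels did. This follows largely from the highest and lowest library that they share with *Pdgfrb*, and is no separate result. The ratio of *Rgs5* to *Pdgfrb* was 0.888, 0.689 and 0.906, a coefficient of variation of 14.5%, against 48.1% for the level of *Rgs5* itself. For *Higd1b* to *Pdgfrb* the ratio was 1.22, 1.03 and 1.06, with a coefficient of variation of 9.14% against 36.6%. For *Cspg4* to *Pdgfrb* it was 0.139, 0.140 and 0.179, with 15.1% against 53.3%. The ratio of *Pdgfrb* to *Pdgfra* had a coefficient of variation of 25.6%, against 37.8% for the level of *Pdgfrb*. The lower variation of a ratio was thus not particular to the pericyte genes. Summed, *Pdgfrb*, *Cspg4*, *Rgs5* and *Higd1b* came to 0.367% of the summed endothelial genes in S38, 0.219% in S44 and 0.606% in S52.

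**Figure D3:**
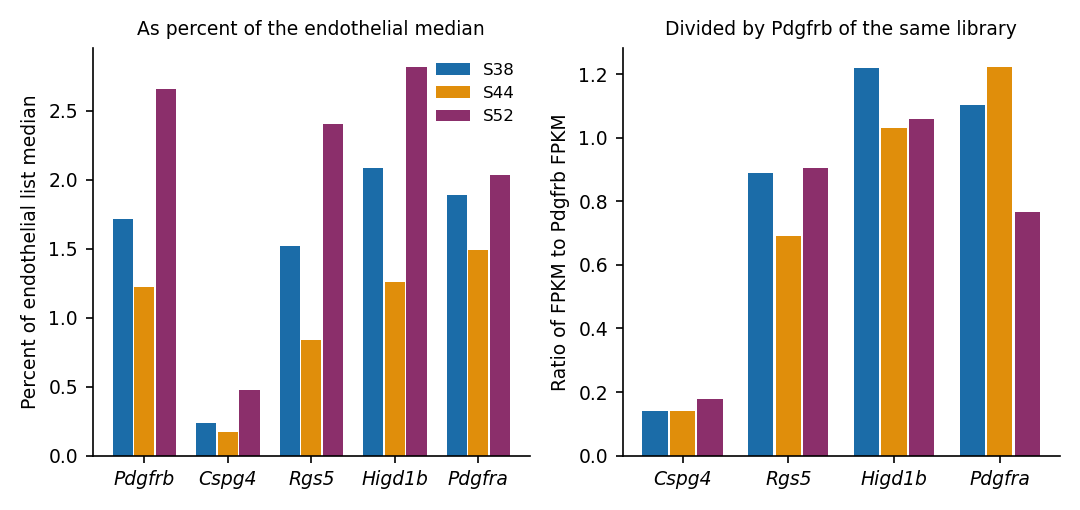
Left, levels of *Pdgfrb*, the pericyte genes and *Pdgfra* as a percent of the median of 10 endothelial genes in S38, S44 and S52; right, levels divided by that of *Pdgfrb* in the same library (bars are single library values). *Pdgfrb*, *Cspg4*, *Rgs5* and *Higd1b* are lowest in S44 and highest in S52 on the left, and on the right the ratio of *Higd1b* to *Pdgfrb* stays between 1.03 and 1.22.

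Other genes of mural cells were examined in the same way. Of 16 further pericyte genes 14 were detected, and their median level was 4.74, 2.96 and 6.19 FPKM. In 9 of the 14, S52 was over 2-fold above S44, against 3.87% of all detected rows. The order S52, S38, S44 was found in 8 of the 14, against 17.8% of all detected rows. *Mcam*, which ECs also express, was the highest at 222, 253 and 262 FPKM. *Postn*, which encodes the matrix protein periostin, was at 23.8, 15.6 and 61.8 FPKM, and *Cox4i2*, which encodes a lung isoform of a cytochrome oxidase subunit, at 21.8, 16.2 and 39.6 FPKM. The list did not move as 1 block: *Gucy1b3*, a subunit gene of the nitric oxide receptor, was lowest in S52 at 25.8 FPKM, against 45.1 FPKM in S38 and 30.3 FPKM in S44. *Lamc3* and *Anpep*, named after their values were seen, were also lowest in S52. At the bottom of the list, *Abcc9*, a potassium channel subunit gene of mural cells, was at 1.14, 0.292 and 0.644 FPKM.

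The 10 smooth muscle genes had a median of 11.6, 6.95 and 10.7 FPKM. The 8 detected genes of that list were all lowest in S44, as *Pdgfrb*, *Rgs5*, *Cspg4* and *Higd1b* were, but as deposited 2 of them were highest in S52. The share of all detected rows that were lowest in S44 was not counted. *Acta2*, which encodes smooth muscle actin, was at 90.3, 46.7 and 79.7 FPKM, and *Tagln*, which encodes transgelin, at 92.3, 63.3 and 81.6 FPKM. *Myocd*, the gene of the smooth muscle coactivator myocardin, was at 0.00546 FPKM in S38 and 0.0584 FPKM in S44 and was listed at 0 in S52. For *Pdgfra* the comparison is with 15 fibroblast genes, whose median was 9.47, 9.27 and 5.95 FPKM. It was lowest in S52, where *Pdgfra* was highest as deposited. After rescaling to a common sum over all rows, *Pdgfra* was highest in S38 instead. Of that list 14 genes were detected, from *Inmt*, an N-methyltransferase gene, at 453, 446 and 348 FPKM down. *Gli1*, a hedgehog target, was lowest in the list and listed at 0 in S52. As deposited, 9 of the 14 detected fibroblast genes were lowest in S52, but 3 were highest there, as *Pdgfra* was. The shares of all detected rows lowest or highest in S52 were not counted. In bulk RNA, fewer cells of a type and less RNA per cell cannot be told apart, and how far other cells in the sorted fraction contributed to the levels of *Pdgfrb*, *Pdgfra* and the pericyte genes was not tested.

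Genes that act on the ligands were mostly detected. Of 13 genes for processing, binding or retention of PDGFs, 11 were detected, and the list median was 21.9, 21.6 and 24.9 FPKM. *Plat*, the gene of tissue plasminogen activator, which releases active PDGF-C, was at 81.1, 90.0 and 88.7 FPKM in a fraction where *Pdgfc* itself was at or under 0.183 FPKM. *Sparc*, whose product binds PDGF-B, was at 187, 225 and 282 FPKM, *Nrp1* at 245, 260 and 175 FPKM, and *Thbs1*, also a platelet product, at 251, 185 and 95.3 FPKM. *A2m*, which encodes a plasma protein that binds PDGF, was at 0.0623 FPKM in S44 and listed at 0 in S38 and S52.

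All 23 adaptor and effector genes of the PDGF receptors were detected, with a median of 21.04, 22.5 and 24.1 FPKM. These genes serve many receptors. *Plcg1*, which encodes a phospholipase C, had the highest mean at 69.1, 67.8 and 58.5 FPKM, and *Src*, a kinase gene, the lowest at 4.52, 3.07 and 2.098 FPKM. Of this list, 2 genes differed over 2-fold between libraries, against the 20.1% of detected rows given above. The 11 genes that attenuate receptor signals were all detected, from *Socs3*, a cytokine signal inhibitor gene, at 320, 413 and 394 FPKM to *Cbl*, a ubiquitin ligase gene, at 7.62, 6.49 and 4.56 FPKM.

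Related genes of the same families put the members in context. *Pdgfra* and *Pdgfrb* belong to the class III receptor tyrosine kinases, of which *Kit*, the stem cell factor receptor gene, was the highest at 91.1, 110 and 81.0 FPKM. *Csf1r*, a macrophage receptor gene, was at 1.25, 1.85 and 1.30 FPKM, and *Flt3* was at 0.00731 FPKM in S44 and listed at 0 in the others. By mean level *Rgs5* ranked below *Rgs3*, *Rgs18* and *Rgs2* within the R4 family of G-protein regulators, although in S52 it was above *Rgs18*. *Rgs3* was at 48.0, 42.9 and 47.2 FPKM, while *Rgs18*, which is also in the platelet list, was at 54.2, 33.0 and 1.76 FPKM, against the 5.75, 3.31 and 9.11 FPKM of *Rgs5*. *Rgs8* was listed at 0 in all 3 libraries. *Higd1b* was below *Higd2a*, at 94.3, 98.2 and 67.4 FPKM, and *Higd1a*, at 17.3, 19.7 and 20.3 FPKM, and *Higd1c* was listed at 0 in all 3.

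**Figure D4:**
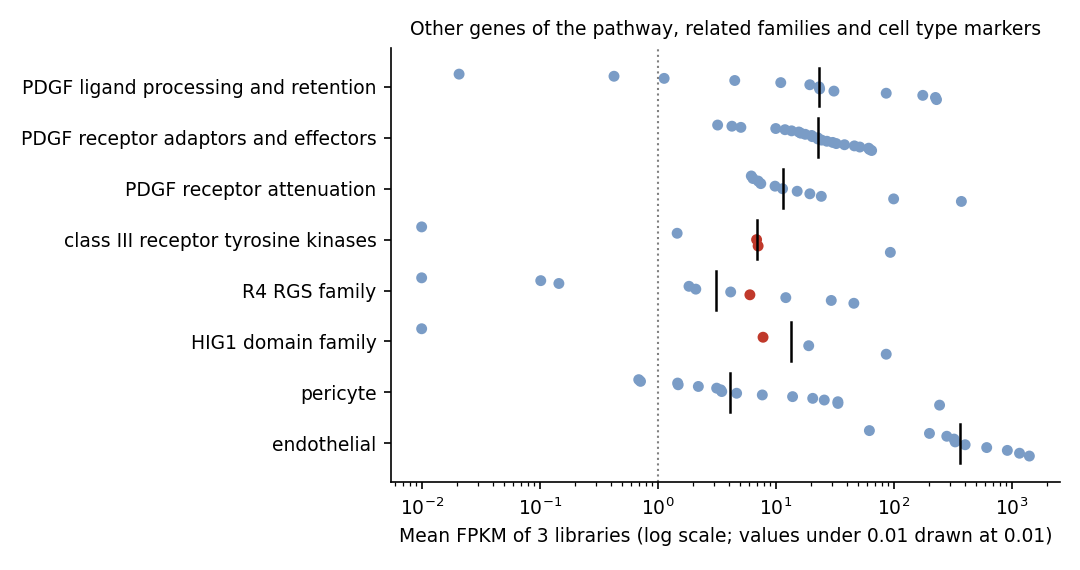
Mean FPKM of 3 libraries (log scale) for each gene of 8 lists, with black bars at the list medians, red dots for genes among the 9 members, and a dotted line at 1 FPKM. All genes of the adaptor and attenuation lists lie above 1 FPKM, and the pericyte list lies below the endothelial list apart from *Mcam*, at 222, 253 and 262 FPKM.

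The rows with the most similar profile over the 3 libraries, by the root mean square difference of centred log2(FPKM + 1) among 11648 genes, were *Tmem88*, *Pp2d1* and *Nxpe3* for *Pdgfb*. For *Pdgfrb* they were *Patl2*, *Cfdp1* and *Pcdh18*, and for *Rgs5* they were *Speg*, *Naa16* and *Vcpkmt*. With 3 points such likeness can be common: 15.1% of the genes lay within 0.1 of *Pdgfb*. It was rarer for the other members, with 1.66% within 0.1 of *Pdgfrb* and 0.309% within 0.1 of *Rgs5*. Among the neighbours of *Pdgfrb*, *Cspg4* ranked 146, *Higd1b* 168 and *Rgs5* 395. With a pseudocount of 0.1, none of the 3 nearest genes (0 of 3) was shared for any of these members.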

How the data were processed

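Adult lung ECs were measured by bulk RNA-seq in 3 libraries. The deposited values are FPKM, 1 row for each gene symbol, on the mm10 genome. The submitters' processing notes name bcl2fastq 2.17, FastQC 0.11.5, Trimmomatic 0.36, TopHat2 2.1.0 and Cufflinks 2.2.1, without saying which step each served. The paper's methods describe STAR, HTSeq and edgeR for normalized counts and name no tool for FPKM. Values were used as deposited, in the 3 sample columns used here (0 of those held were left out), and no symbol was repeated.

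Detected genes are those whose mean reached 1 FPKM. FPKM are not counts, so no count model was fitted, and with 1 condition no test was run. Folds and ratios were taken on the FPKM scale, and profile distances on log2(FPKM + 1). Depth was estimated, with a procedure settled once the values had been seen, from the step that makes low values of 7077 genes with a single transcript of 800 to 4000 bp whole numbers of fragments (tolerance 0.15). In S38, S44 and S52, 80.0%, 79.6% and 76.7% of 230, 304 and 163 low values were whole, giving 37900000, 39400000 and 34600000 fragments. Tested on simulated data for 7077 genes, the largest error was 0.0202%. The simulated counts were all whole numbers, so this error checks the procedure and not its accuracy on the deposited values. Counting intervals (95%) are Poisson, on the estimated fragments. Positions are from GENCODE M21 (GRCm38), where 23310 symbols were found.

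The 9 members and the 15 gene lists (150 entries, 2 under an older symbol) were chosen with earlier results of these data known. Named genes are the members and, from each list, the highest, the lowest and up to 3 others by rank of mean, and genes at 0 in every library. For *Pdgfb*, *Pdgfrb* and *Rgs5* the 3 nearest profiles are also named. Alternatives left out each library, rescaled the libraries, and changed the threshold, filter and pseudocount. Those of the library order were chosen after seeing the data. Python 3.11.15, pandas 2.3.3, numpy 2.4.6, SciPy 1.17.1 and matplotlib 3.10.9 were used.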

Additional observations from a re-analysis of the deposited data

How the results depend on the processing

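The number of detected members was 7 to 8 on leaving out each library in turn, 7 to 8 under 3 rescalings and 3 at a threshold of 10 FPKM. The number of members over 2-fold apart, 4 as deposited, ranged from 0 to 4 on leaving out each library, was 1 with the fold taken on FPKM + 1, and was 0 among members with a mean of at least 10 FPKM. The last value follows from the filter, since *Pdgfrb*, *Cspg4*, *Rgs5* and *Higd1b* have means under 10 FPKM. Under rescaling, member means stayed within 1 SD in 23 of 27 recalculations and list medians in 38 of 45. Without a library all 27 and all 45 did so, but this outcome was fixed in advance. Leaving out 1 of 3 values cannot move their mean by 1 SD of the same values. The ratios of members within a library do not depend on scaling. Rescaling to a sum of 1000000 moves every gene by -0.47 (log2) in S44 and -0.30 in S52 relative to S38. It also lowers every level, as the deposited sums were larger, while the threshold stays at 1 FPKM. All rescaled means and medians beyond 1 SD, and the count of 7 detected members under rescaling, occurred with this rescaling. It made S38 the highest library for *Pdgfd* (37.2, 26.7 and 32.5 FPKM) and *Pdgfra* (6.18, 3.65 and 5.44 FPKM) in place of S52, and for *Pdgfb* (69.0, 54.2 and 48.7 FPKM) in place of S44. With it 3 detected members kept the order S52, S38, S44, against 6 under each of the other rescalings. The nearest profiles shared 1, 1 and 0 of 3 genes for *Pdgfb*, *Pdgfrb* and *Rgs5* among rows with a mean of at least 10 FPKM. Counting error was largest for *Pdgfc*, at an estimated 22, 24 and 0 fragments. By counting error alone, the depth of S52 would still have shown a level above 0.0261 FPKM (3 fragments). That limit takes fragments as independent, and S52 listed more rows at 0 than S38 or S44. Precision is otherwise set by the 3 libraries. No paired analysis was possible because the libraries analysed here form 1 group.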
